A study of Mus musculus with 3 samples.

Results

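The comparison of C2C12-DF with C2C12-PR cells sets the miRNAs of a mouse myoblast line in differentiation medium beside those of the same line in growth medium. C2C12 cells are mouse myoblasts of an established line and fuse into myotubes in low serum. C2C12-DF cells had been kept in DMEM with 2% horse serum and C2C12-PR cells in DMEM with 10% fetal bovine serum, and both are the parental line with no transgene. The sera differ in species as well as in amount, and the time in either medium is not given in the sources used here. Total RNA of each culture was labelled with Cy5 and hybridized to 1 single-colour 3D-Gene mouse miRNA array. Another array of the series, from a subline that over-expresses Wnt4, entered only the normalization. All 1265 miRNA spots of an array that holds 3200 spots were taken as members, each with 1 spot per array, and 13 of them stand for several miRNAs. With 1 array per condition there are no replicates, no test was possible, and every ratio compares these 2 libraries.

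A miRNA is a short RNA that guides a silencing complex to messenger RNAs, mainly through its seed, the bases near its 5′ end. Each hairpin precursor can give a 5p and a 3p arm, and miRNAs that share a seed can share targets. In skeletal muscle, miR-1, miR-133 and miR-206 are known as muscle-enriched miRNAs that accumulate as myoblasts differentiate. The miR-17/92 cluster and its paralogues are known for their abundance in dividing cells.

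The miRNAs on which the comparison turned are shown first, as mature sequences from RefSeq (GRCm38.p6), with the seed (bases 2 to 8) in capitals. A mature sequence was matched for 1024 of the 1265 members and for 14 of the 19 called ones. The first set holds miRNAs that were brighter in C2C12-DF. Those from chr1:20679055-20679076 (miR-206-3p) and chr1:20682834-20682855 (miR-133b-3p) lie within the annotated bounds of the long non-coding RNA gene Lincmd1, and the one from chr2:133564722-133564742 (miR-3090-5p) in no annotated gene.
miR-206-3p: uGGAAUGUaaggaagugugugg
miR-133b-3p: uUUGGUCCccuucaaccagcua
miR-3090-5p: gUCUGGGUggggccugagauc

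The second set holds the members of the seed AAAGUGC, which were dimmer in C2C12-DF, together with their cluster neighbour miR-19b-3p. miR-17-5p (chr14:115043684-115043706) and miR-20a-5p (chr14:115044183-115044205) come from the miR-17/92 cluster. miR-106a-5p (chrX:52742541-52742563) and miR-20b-5p (chrX:52742159-52742181) come from its X-linked paralogue. miR-93-5p (chr5:138165574-138165596) and miR-106b-5p (chr5:138165787-138165807) lie within the bounds of Mcm7.
miR-17-5p: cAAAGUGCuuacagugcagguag
miR-20a-5p: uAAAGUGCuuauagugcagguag
miR-20b-5p: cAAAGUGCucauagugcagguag
miR-106a-5p: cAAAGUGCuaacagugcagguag
miR-93-5p: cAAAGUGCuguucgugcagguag
miR-106b-5p: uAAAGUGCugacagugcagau
miR-19b-3p: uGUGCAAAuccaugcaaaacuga

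A further set holds miRNAs with high registry numbers that gave some of the brightest spots on the C2C12-PR array. miR-6412 comes from chr10:122648412-122648433, within Gm36284, miR-3963 from chr3:151023839-151023857, outside annotated genes, and miR-3968 from chr11:115447969-115447989, within Trim80. miR-5100 comes from chr11:60728698-60728718, within Mief2, and miR-6366 from chr16:18165093-18165114, outside annotated genes.
miR-6412: uCGAAACCauccucagcuacua
miR-3963: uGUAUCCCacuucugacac
miR-3968: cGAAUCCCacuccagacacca
miR-5100: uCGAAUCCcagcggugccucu
miR-6366: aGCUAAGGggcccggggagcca

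Signal is given in units, the brightness of a spot less the array's background, taken as the mean of its blank spots once 5% had been trimmed at each end. The background was 100.7 on the C2C12-DF array and 95.9 on the C2C12-PR array. A miRNA counts as detected where the authors give a background-subtracted value, which began at 10.8 units on C2C12-DF and 11.9 on C2C12-PR, about 2 SD of those blank spots above background. By this limit 370 miRNAs were detected on C2C12-DF and 339 on C2C12-PR, with 285 on both, 85 on C2C12-DF only, 54 on C2C12-PR only and 841 on neither. Of the blank spots, 6.01% passed the limit on C2C12-DF and 7.15% on C2C12-PR, rates at which 76.0 and 90.5 of the 1265 spots would pass. The 16 spike control spots averaged 31165 units on C2C12-DF and 30657 on C2C12-PR, and their log2 ratios had a mean of 0.017 and an SD of 0.114.

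A log2 ratio is C2C12-DF over C2C12-PR, after normexp background correction with an offset of 50 and quantile normalization, unless another scale is named. The offset draws the ratios of dim spots toward 0, and the quantile step gives spots of equal rank on the arrays equal values. The ± beside a ratio is 1 technical SD from the blank and spike spots, and it holds no biological variation. A miRNA is called where the log2 ratio reached 1 or -1, a 2-fold difference, and the brighter array detected it. The second scale used is the spike scale, on which background-subtracted units were scaled to the spike controls with no quantile step. There, and in every other setting by plain subtraction, an undetected spot was given its array's lowest detected signal. The median log2 ratio of the 285 miRNAs detected on both arrays was 0.04, and it was 0.18 on the spike scale and 0.40 in the authors' processed values, so ratios on those scales are read against these medians.

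On the normalized scale, most miRNAs differed little between the media. Of the 285 miRNAs detected on both arrays, 234 (82.1%) had a log2 ratio within 0.5 of 0, and the quartiles were -0.15 and 0.26. Because the offset draws dim spots toward 0, this share holds for that scale only. A ratio above 0 was found for 157 and a ratio below 0 for 117. Of the 424 miRNAs detected on at least 1 array, 3 (0.708%) were called higher in C2C12-DF and 16 (3.77%) lower. On the spike scale 31 (7.31%) were higher and 33 (7.78%) lower, of which 23 and 24 were detected on both arrays. The higher ones thus made up 15.8% of the calls on the first scale and 48.4% on the spike scale. Those spike-scale calls were made around 0 and not around the median of 0.18. Scaled instead to a median of 0, the same units gave 18 higher and 43 lower. All 3 higher calls and 15 of the 16 lower calls were also made on the spike scale, where miR-3072-3p (-0.97) was not.

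**Figure D1:**
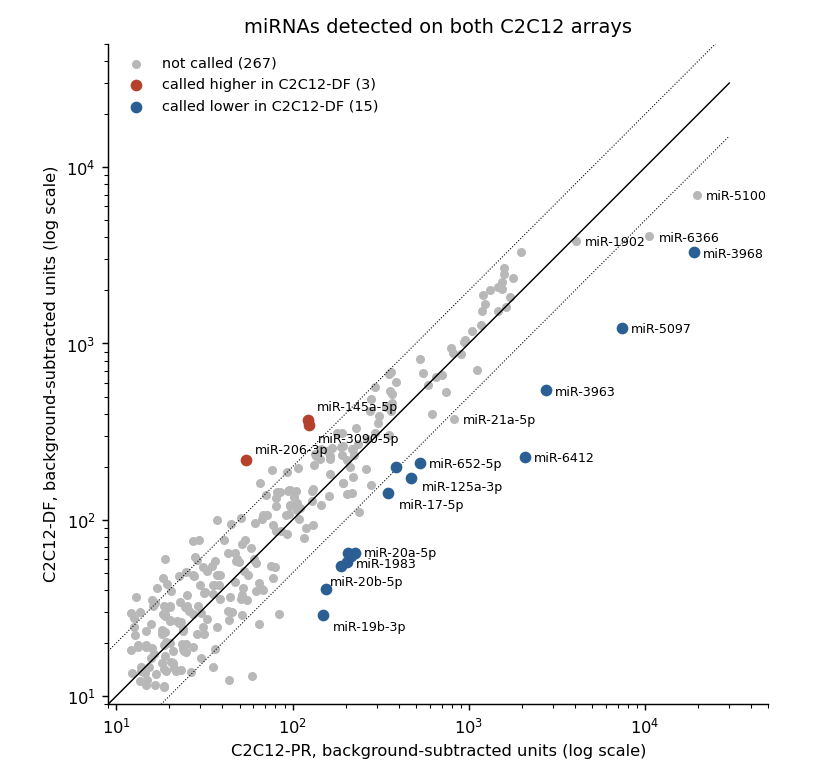
Background-subtracted units of the 285 miRNAs detected on both arrays, C2C12-DF on the vertical and C2C12-PR on the horizontal log axis. The solid line marks equal units and the dotted lines a 2-fold difference in units, and the 3 miRNAs called higher and 15 called lower by the normalized ratio are coloured. miR-5100 and miR-6366 lie below the lower dotted line without being called.

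The spread of the ratios rose with the signal. Among the 87 miRNAs whose geometric mean signal lay between 10 and 30 units, log2 ratios ranged between -0.69 and 0.42 with an SD of 0.18, beside a median technical SD of 0.19, and none was called. Among the 68 between 100 and 300 units the SD was 0.59, with 3 called higher and 8 lower. The 22 above 1000 units had an SD of 0.76 and a median technical SD of 0.16, with 3 called lower and none higher. Below 30 units the SD of the ratios was therefore no larger than the median technical SD, and the offset limits what can be seen there. Single ratios could still lie further out, as did miR-487b-3p at -0.69 ± 0.19.

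Among the muscle-enriched miRNAs, miR-206-3p was brighter in C2C12-DF and had the highest ratio of the 285. It gave 219 units on C2C12-DF against 54.4 on C2C12-PR, and its log2 ratio was 1.26 ± 0.14 (1.99 on the spike scale). miR-133b-3p, whose hairpin lies beside that of miR-206, gave 100.2 units on C2C12-DF and 37.3 on C2C12-PR, a log2 ratio of 0.60 ± 0.15 (1.41 on the spike scale). miR-133a-3p gave 75.8 units on C2C12-DF and 27.2 on C2C12-PR, a log2 ratio of 0.57 ± 0.15 (1.46 on the spike scale). Both lay above 0 on every scale tried but reached the 2-fold limit only on the 4 that add no offset. Whether the spots of the closely related miR-133a and miR-133b tell them apart was not tested.

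The remaining muscle-enriched members were dim or not detected. miR-486-3p, from a hairpin within the ankyrin gene Ank1 that is known in muscle and in red cells, gave 59.8 units on C2C12-DF and 18.9 on C2C12-PR, a log2 ratio of 0.59 ± 0.18 (1.64 on the spike scale). The joint spot of miR-486-5p and miR-3107-5p was near the detection limit on both, with 11.6 units on C2C12-DF and 14.7 on C2C12-PR. miR-3107-3p, the other arm of miR-3107 and no member of the list, went the opposite way to miR-486-3p, with 65.1 units on C2C12-DF against 207 on C2C12-PR, and was called lower (-1.16 ± 0.15). Whether the spots of miR-486-3p and miR-3107-3p tell these miRNAs apart was not tested. In all, 5 of the 20 muscle-enriched spots were detected, all on both arrays, with a median log2 ratio of 0.59, against 0.04 over all 285. Of these 5, 1 was called higher, beside 3 of all 285 and 0.708% of the 424 detected on either array. On the spike scale it was 4 of the 5, beside 23 of the 285 and 7.31% of the 424. The summed signal of the 5 was 466 units on C2C12-DF against 153 on C2C12-PR. miR-1a-3p, the muscle miR-1, gave 10.3 units on C2C12-DF and 2.76 on C2C12-PR and was detected on neither array, and neither were miR-208 and miR-499, which are embedded in myosin heavy chain genes. A lower number of cells of a kind and less RNA per cell cannot be told apart in these bulk samples.

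The other miRNAs called higher are not among the muscle-enriched ones. miR-145a-5p, known from smooth muscle and mesenchymal cells, gave 367 units on C2C12-DF against 122 on C2C12-PR, a log2 ratio of 1.11 ± 0.11. miR-143-3p, which comes from the same cluster, gave 116 units on C2C12-DF and 111 on C2C12-PR, with a log2 ratio of -0.13 ± 0.14. So 1 member of that cluster was called and its neighbour stayed within its technical SD. miR-3090-5p gave 345 units on C2C12-DF against 124 on C2C12-PR, a log2 ratio of 1.02 ± 0.11, close to the limit of 1. Just below the limit stood miR-1902 (0.97), miR-5122 (0.87 ± 0.15) and miR-5627-5p (0.82 ± 0.15). miR-5122 and miR-5627-5p were higher on the spike scale too, at 1.31 and 1.28, whereas miR-1902 was -0.10 there.

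**Figure D2:**
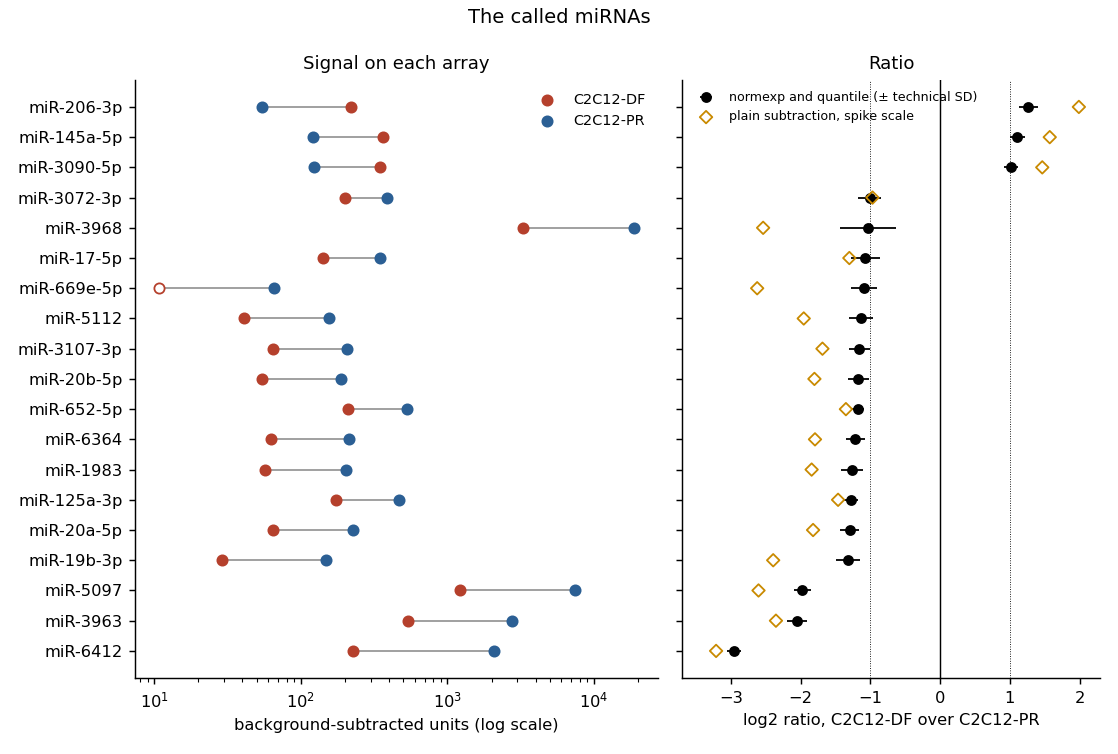
The 19 called miRNAs in order of their log2 ratio. The left panel gives background-subtracted units on a log axis, C2C12-DF in red and C2C12-PR in blue, with an open circle at the detection limit of 10.8 units where miR-669e-5p was not detected on C2C12-DF. The right panel gives the log2 ratio, C2C12-DF over C2C12-PR, as black points with 1 technical SD and as open diamonds on the spike scale. All diamonds lie on the same side of 0 as the black points, and that of miR-669e-5p was computed with C2C12-DF at the detection limit.

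The miRNAs with the seed AAAGUGC were dimmer in C2C12-DF as a group. miR-20a-5p gave 64.6 units on C2C12-DF against 225 on C2C12-PR, a log2 ratio of -1.30 ± 0.13. miR-20b-5p gave 54.8 units on C2C12-DF against 189 on C2C12-PR, a log2 ratio of -1.17 ± 0.15. miR-17-5p gave 143 units on C2C12-DF against 348 on C2C12-PR, a log2 ratio of -1.07 ± 0.21. These 3 were called lower. miR-106a-5p, with 111 units on C2C12-DF against 239 on C2C12-PR, stood just outside the limit at -0.94 ± 0.13. miR-93-5p had a log2 ratio of -0.59 ± 0.15 and miR-106b-5p one of -0.30 ± 0.18, so the pair encoded within Mcm7 had ratios nearer to 0.

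Of the 7 spots with this seed, 6 were detected on both arrays, and their log2 ratios had a median of -1.01. Their summed signal was 554 units on C2C12-DF against 1281 on C2C12-PR. As the printed sequences show, these miRNAs are nearly alike: miR-17-5p and miR-106a-5p differ at 1 of 23 bases, miR-20a-5p and miR-20b-5p at 2, and miR-20a-5p and miR-106a-5p at 3. Signal may be shared between such spots, so they were not read as independent measurements, and cross-hybridization was not tested.

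Over the whole miR-17/92 group, with its several seeds, 14 of 28 spots were detected on both arrays. Of these, 4 were called lower and none higher, beside 15 lower of all 285 and 3.77% of the 424 detected on either array. The median log2 ratio was -0.36 against 0.04 over all 285, and 11 ratios lay below 0. The fourth call was miR-19b-3p, a member with another seed, at 28.8 units on C2C12-DF against 150 on C2C12-PR and a log2 ratio of -1.32 ± 0.17. It is encoded at chr14:115044358-115044380 and again at chrX:52741991-52742013, and the array cannot assign its signal to either. Other members of the same transcripts moved less. miR-92a-3p gave 53.9 units on C2C12-DF and 79.8 on C2C12-PR (-0.34 ± 0.16), and miR-18a-5p, dim on both arrays, had a log2 ratio of -0.27 ± 0.17. miR-25-3p, from the Mcm7 cluster, gave 135 units on C2C12-DF and 102 on C2C12-PR (0.12 ± 0.18). miR-363-5p, of the X-linked cluster, gave 31.9 units on C2C12-DF and 24.4 on C2C12-PR (0.05 ± 0.19). By cluster, the median was -0.64 for the 6 mature miRNAs of the X-linked cluster detected on both arrays, -0.38 for the 7 of the chromosome 14 cluster and -0.30 for the 3 of the Mcm7 cluster, with miR-19b-3p and miR-92a-3p counted in both of the first 2.

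The largest ratios in size belonged to miRNAs with high registry numbers. miR-6412 gave 227 units on C2C12-DF against 2077 on C2C12-PR, a log2 ratio of -2.95 ± 0.10. miR-3963 gave 543 units on C2C12-DF against 2739.9 on C2C12-PR, a log2 ratio of -2.05 ± 0.14. miR-5097 gave 1228 units on C2C12-DF against 7374 on C2C12-PR, a log2 ratio of -1.97 ± 0.12. These 3 were lower in C2C12-DF by at least the 2-fold limit under each of the 9 other ways of obtaining the values. The paper reports that mimics of miR-6412 and of miR-3963 lowered the share of C2C12 cells positive for troponin T. It found no significant difference in MyoD or myogenin. No function of miR-5097 is given here.

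miR-487b-3p, which the paper takes up together with miR-6412 and miR-3963 and which belongs to the imprinted Dlk1-Dio3 region, gave 13.0 units on C2C12-DF, just above the detection limit, against 59.0 on C2C12-PR. Its log2 ratio was -0.69 ± 0.19 with the offset of 50 and -2.20 on the spike scale. On the arrays, its side of the 2-fold limit thus rests on the background step. The paper also measured miR-6412 and miR-3963 beside miR-487b by RT-qPCR, and reports each as lower in differentiation medium. The fall in that measurement was largest for miR-487b and smallest for miR-6412, whereas miR-6412 had the largest fall on the arrays. The RT-qPCR and the arrays differ in their reference, and the time in medium is given only for the RT-qPCR.

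Among the 15 brightest spots of the C2C12-PR array, the ratios of the top ones depended on the normalization. miR-5100 was the brightest spot on both arrays, with 6998 units on C2C12-DF against 19680.4 on C2C12-PR. Being of rank 1 on both, it had a log2 ratio of 0.00 after the quantile step and -1.51 on the spike scale. miR-6366 gave 4049 units on C2C12-DF against 10577 on C2C12-PR, and its log2 ratio was 0.53 after the quantile step and -1.40 on the spike scale. miR-3968 gave 3292 units on C2C12-DF against 18879 on C2C12-PR, and was lower on both scales, at -1.03 ± 0.40 and -2.54. miR-1902 gave 3812 units on C2C12-DF and 4047 on C2C12-PR, which became a log2 ratio of 0.97 after the quantile step and -0.10 on the spike scale. With a quantile step, miR-6366 lay between 0.53 and 0.67 under each setting. Wherever no quantile step was used here, it lay between -1.58 and -1.18, miR-5100 between -1.69 and -1.29, and miR-1902 between -0.28 and 0.12. The ratio above 0 for miR-6366 and the ratio near 1 for miR-1902 thus appeared only with the quantile step.

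The signal of a few spots made up much of the C2C12-PR array. The 7 brightest spots of C2C12-PR summed to 20147 units on C2C12-DF against 65374 on C2C12-PR, or 22.5% of the signal of all detected miRNAs on C2C12-DF against 52.9% on C2C12-PR. Without these 7, the detected miRNAs summed to 69526 units on C2C12-DF and 58250 on C2C12-PR. As the 7 were picked by their C2C12-PR signal, the comparison favours that array. The 7 brightest spots of C2C12-DF itself summed to 26604 units, 29.7% of the signal of its detected miRNAs. The spots of rank 8 to 15 on C2C12-PR, miR-125b-5p, miR-23a-3p, miR-3100-3p, miR-690, miR-2137, miR-23b-3p, let-7c-5p and miR-5126, each gave at least as many units on C2C12-DF. miR-125b-5p, for example, gave 3289 units on C2C12-DF and 1989 on C2C12-PR (0.70 ± 0.40). Brightness of different spots depends on their sequences as well, so these sums describe spot signal and not amounts of RNA.

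**Figure D3:**
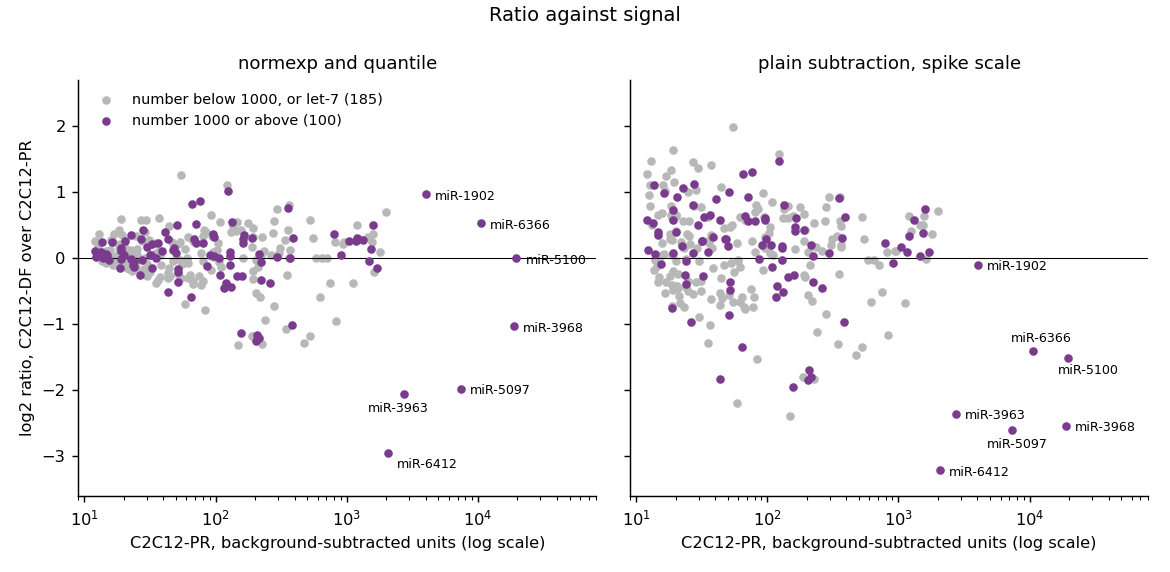
Log2 ratio, C2C12-DF over C2C12-PR, against C2C12-PR background-subtracted units on a log axis, for the 100 miRNAs numbered 1000 or above (purple) and the other 185 (grey) detected on both arrays. The left panel shows the normalized ratio and the right panel the spike scale. On the right, miR-5100, miR-6366, miR-3968, miR-5097, miR-3963 and miR-6412 lie below -1, and on the left miR-5100 and miR-6366 do not.

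Of the 16 miRNAs called lower, 9 carry a number of 1000 or above, as do 451 of the 1265 members and 100 of the 285 detected on both arrays. The remaining late-numbered calls were miR-1983 (-1.26 ± 0.16), miR-6364 (-1.21 ± 0.14), miR-3107-3p (-1.16 ± 0.15), miR-5112 (-1.13 ± 0.18), miR-3968 and miR-3072-3p. As a whole the late-numbered miRNAs were not shifted, with a median log2 ratio of 0.05 against 0.04 for the earlier-numbered ones. A difference was seen among bright spots, though only 4 of the 9 late-numbered lower calls gave over 1000 units on C2C12-PR. Of the 15 late-numbered miRNAs above 1000 units on C2C12-PR, 6 were at or below -1 on the spike scale, against none of the 9 earlier-numbered ones. On the normalized scale 4 of the 15 were called lower, without miR-5100 and miR-6366, and again none of the 9. Both sets were chosen by their C2C12-PR signal, a choice that favours low ratios.

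Several of the late-numbered sequences named above share letters. The motif CGANNCC, read on the single RNA strand and spelled out after the values had been seen, is near the 5′ end of 4 of them, shown here with the motif in capitals.
miR-5100: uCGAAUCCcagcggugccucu
miR-3968: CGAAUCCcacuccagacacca
miR-6412: uCGAAACCauccucagcuacua
miR-6364: uCGAUCCCcagcacuccuguga

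It occurs in 11 of the 1679 mature sequences in the table (0.655%) and in 8 of the 229 miRNAs detected on both arrays that have a sequence (3.49%). Besides the 4 shown, which had spike-scale log2 ratios of -1.51, -2.54, -3.21 and -1.79 in the order printed, these were miR-375-5p, miR-138-2-3p, miR-700-3p and miR-1195. miR-138-2-3p had a spike-scale log2 ratio of -1.01, miR-375-5p one of -0.51 and miR-700-3p one of -0.49. miR-1195 went the other way, with 2009.8 units on C2C12-DF, 1324 on C2C12-PR and a spike-scale log2 ratio of 0.58. miR-5100 and miR-3968 share the 9-base run CGAAUCCCA, and miR-3968 and miR-3963 the 8-base run AUCCCACU. Because the motif was picked from miRNAs with low ratios, the counts describe it and support nothing.

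No other growth-linked miRNA was called. miR-21a-5p, widely expressed in dividing mesenchymal cells, gave 374 units on C2C12-DF against 826 on C2C12-PR and stood just outside the limit at -0.95 ± 0.12. It passed the limit on most of the other scales, among them the spike scale (-1.16), and lay between -1.34 and -0.94 over all of them. miR-221-3p gave 881 units on C2C12-DF and 814 on C2C12-PR (0.24 ± 0.11), and miR-222-3p gave 425 units on C2C12-DF and 364 on C2C12-PR (0.00 ± 0.22). Of the group of miR-15, miR-16, miR-322 and miR-503, known to restrain the cell cycle, 7 of 16 spots were detected on both arrays with a median of 0.00 and no call. miR-15b-5p (0.45 ± 0.11) was at its upper end and miR-15a-5p (-0.30 ± 0.17) at its lower end.

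Of the 11 let-7 and miR-98 spots with the seed GAGGUAG, 10 were detected on both arrays, with none called. Their summed signal was 10085 units on C2C12-DF against 7544 on C2C12-PR and their median log2 ratio was 0.18, against 0.04 over all 285. On the spike scale it was 0.23 against 0.18, so the family lay close to all miRNAs there. The family did not move as a block. let-7b-5p gave 1887 units on C2C12-DF against 1198 on C2C12-PR (0.50 ± 0.18), whereas let-7i-5p gave 141 units on C2C12-DF against 205 on C2C12-PR (-0.53 ± 0.16). The 2 sequences differ at 3 of 22 bases, with the seed in capitals.
let-7b-5p: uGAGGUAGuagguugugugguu
let-7i-5p: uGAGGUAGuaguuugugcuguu

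The miR-29 family, known for targeting messenger RNAs of the extracellular matrix, was dimmer in C2C12-DF for all 3 detected members, with none called. miR-29a-3p gave 707 units on C2C12-DF against 1113 on C2C12-PR (-0.38 ± 0.15). miR-29b-3p gave 29.3 units on C2C12-DF against 83.5 on C2C12-PR (-0.78 ± 0.18, and -1.53 on the spike scale). miR-29c-3p had a log2 ratio of -0.35 ± 0.18. The median of -0.38 lay below the lower quartile of -0.15 of all 285.

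Groups on the other side of the median were miR-125 with miR-99/100, miR-378 and miR-30. In the miR-125, miR-99 and miR-351 group, 9 of 13 spots were detected on both arrays, with a median of 0.43. Of these 9, none was called higher and 1 lower, beside 15 of all 285 and 3.77% of the 424 detected on either array. miR-100-5p gave 187 units on C2C12-DF against 93.1 on C2C12-PR (0.66 ± 0.14), miR-99a-5p gave 144 units on C2C12-DF against 82.0 on C2C12-PR (0.43 ± 0.16), and miR-99b-5p had a log2 ratio of 0.43 ± 0.22. The miR-378 spots, of a family whose member miR-378a is encoded within Ppargc1b, gave log2 ratios between 0.33 and 0.41 at all 4 spots detected on both arrays. miR-378a-3p, for example, gave 220.0 units on C2C12-DF and 143 on C2C12-PR (0.41 ± 0.12). Whether these 4 spots tell the members of the family apart was not tested. In the miR-30 family, 6 of 12 spots were detected on both arrays with a median of 0.19, and miR-30c-5p stood highest with 563 units on C2C12-DF against 293 on C2C12-PR (0.75 ± 0.15). miR-762 (691 units on C2C12-DF against 361 on C2C12-PR, 0.80 ± 0.23) and miR-3102-5p (675 units on C2C12-DF against 354 on C2C12-PR, 0.76 ± 0.22) had like ratios and belong to none of these groups.

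**Figure D4:**
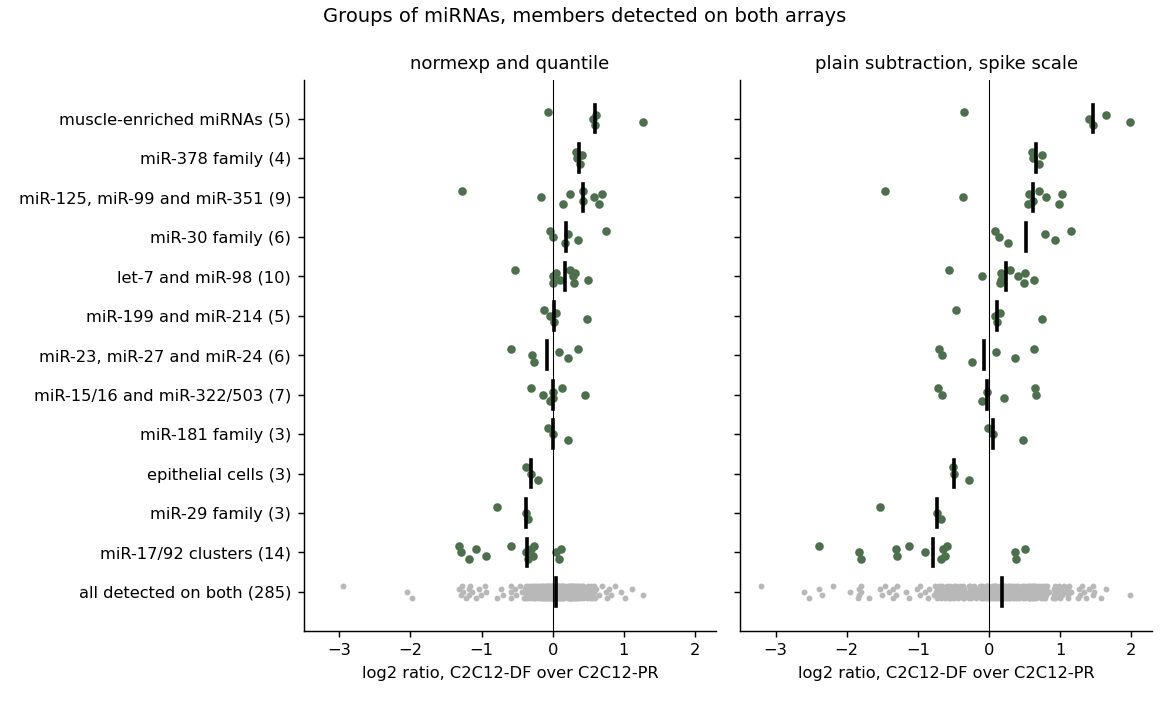
Log2 ratio, C2C12-DF over C2C12-PR, of the members detected on both arrays in 12 groups of miRNAs (number in parentheses) and of all 285, after normexp and quantile normalization (left) and on the spike scale (right). Points are single miRNAs and black bars are medians. The median of the 5 muscle-enriched miRNAs stands highest and those of the miR-29 family and the miR-17/92 clusters lowest in both panels.

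Further groups that earlier work ties to myoblasts centred near 0. The miR-199 and miR-214 group had all 5 spots detected on both arrays, with a median of 0.02, and miR-214-3p stood highest in it, at 229 units on C2C12-DF against 135 on C2C12-PR (0.48 ± 0.11). The miR-23, miR-27 and miR-24 group had a median of -0.08 over 6 spots, with miR-23b-3p at 0.36 ± 0.15 and miR-27a-3p at -0.59 ± 0.09. miR-27a-3p, of a family known to regulate Pax3 in mouse muscle, gave 399 units on C2C12-DF against 621 on C2C12-PR. The miR-181 family had a median of 0.00 over 3 spots. Of 29 spots for other miRNAs cited in myogenesis, 12 were detected on both arrays, with a median of -0.01 and none called. In the Dlk1-Dio3 region, 10 of 107 spots were detected on both arrays, with a median of 0.02. Of these 10, 1 was called lower, miR-3072-3p, beside 15 of all 285 and 3.77% of the 424 detected on either array.

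How far the arms of a hairpin lay apart depended on the scale. Both arms were detected on both arrays for 30 hairpins, and for 20 of them the log2 ratios of the arms lay less than 0.5 apart, against 9 of them on the spike scale. The arms were at least 1 apart in 3 hairpins, and in 10 on the spike scale. These 3, miR-125a, miR-652 and miR-3072, were among the 10, and the arms are printed for miR-125a (chr17:17830817-17830840 and chr17:17830855-17830876, within Spaca6) and miR-652 (chrX:142739020-142739043 and chrX:142739060-142739080, within Tmem164), with seeds in capitals.
miR-125a-5p: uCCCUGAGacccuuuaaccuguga
miR-125a-3p: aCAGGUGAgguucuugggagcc
miR-652-5p: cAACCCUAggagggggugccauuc
miR-652-3p: aAUGGCGCcacuaggguugug

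miR-125a-5p gave 818 units on C2C12-DF against 527 on C2C12-PR, a log2 ratio of 0.58 ± 0.08. miR-125a-3p gave 173 units on C2C12-DF against 471 on C2C12-PR, a log2 ratio of -1.28 ± 0.10, so the arms lay 1.85 ± 0.12 apart in opposite directions. miR-652-5p gave 210.1 units on C2C12-DF against 529 on C2C12-PR (-1.18 ± 0.09), whereas miR-652-3p, nearer to the detection limit, gave 25.6 units on C2C12-DF and 15.7 on C2C12-PR (0.12 ± 0.19). In miR-3072 the 5p arm gave 145 units on C2C12-DF and 129 on C2C12-PR (0.03 ± 0.14), and the 3p arm 199 units on C2C12-DF against 384 on C2C12-PR (-1.01 ± 0.16).

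**Figure D5:**
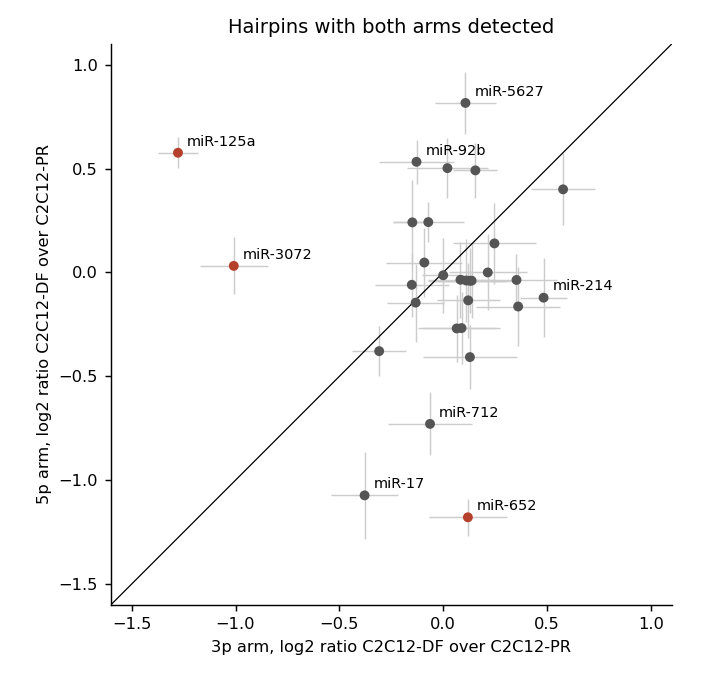
Log2 ratio, C2C12-DF over C2C12-PR, of the 5p arm against that of the 3p arm for the 30 hairpins with both arms detected on both arrays, with bars of 1 technical SD and a line of equality. The 3 hairpins in red, miR-125a, miR-3072 and miR-652, have arms at least 1 apart.

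The miRNAs detected on 1 array only were mostly dim. The 85 detected on C2C12-DF only had a median of 13.2 units there, and the 54 detected on C2C12-PR only a median of 14.3 units there, with 3 in each set above 30 units. miR-669e-5p gave -1.89 units on C2C12-DF against 65.5 on C2C12-PR, and it counts among the 16 lower calls by a log2 ratio of -1.10 that rests on a signal below background. Set against the detection limit on C2C12-DF, it was at least 1.78-fold lower on the normalized scale, short of 2-fold, and at least 6.09-fold lower in units. Without it 15 miRNAs were called lower. Also detected on C2C12-PR only were miR-7a-5p (7.51 units on C2C12-DF against 55.8 on C2C12-PR) and miR-144-3p (3.70 units on C2C12-DF against 48.3 on C2C12-PR), and neither was called. They were at least 1.64-fold and 1.53-fold lower in C2C12-DF on the normalized scale, and at least 5.18-fold and 4.48-fold lower in units. Brightest on the other side was miR-1963, with 36.3 units on C2C12-DF against -2.60 on C2C12-PR, at least 1.31-fold higher on the normalized scale. miR-148a-3p, known to promote myogenic differentiation in mouse cells, gave 22.5 units on C2C12-DF and -1.15 on C2C12-PR.

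Marker miRNAs of other lineages were at or near the detection limit, with a few exceptions. Both arms of miR-122 (liver) and of miR-126 (endothelium) were detected on neither array. None of 10 blood cell spots and none of 15 neural spots was detected on both arrays, and their detected signals summed to 16.9 units on C2C12-DF against 67.1 on C2C12-PR for blood and 12.5 units on C2C12-DF against 30.3 on C2C12-PR for the neural ones. Of 23 epithelial spots, 3 were detected on both arrays. miR-375-5p gave 529 units on C2C12-DF against 743 on C2C12-PR (-0.38 ± 0.12), miR-375-3p gave 161 units on C2C12-DF against 193 on C2C12-PR (-0.31 ± 0.13), and no member of this list was called. Of 24 stem cell spots, 4 were detected on both arrays, with a median of 0.03. Brightest of these were miR-292-3p, with 76.9 units on C2C12-DF and 53.8 on C2C12-PR, and miR-290-5p, with 48.3 units on C2C12-DF and 37.3 on C2C12-PR.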

How the data were processed

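The authors deposited, for each array, raw spot intensity (linear, background included), a background-subtracted intensity left blank below a limit, and a normalized intensity. The series table holds the same normalized intensity, with a largest difference of 4e-06 over 1252 matched spots. Labelling, hybridization and scanning were done by Toray, and its settings and normalization are not given in the sources used here. The labels name the miRNeasy kit for RNA extraction and the paper names Isogen. Groups came from the labels, and 0 columns were left unmapped.

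Here the raw intensity was corrected with normexp (limma 3.58.1, R 4.3.3, offset 50, trimmed blank mean as background), quantile-normalized over the miRNA spots of the 3 arrays and converted to log2. Other steps used Python 3.11.15, numpy 2.4.6, pandas 2.3.3 and matplotlib 3.10.9. The script was tested on simulated data. No spot was filtered out. Precision is limited by there being 1 array per condition, and no test was made. Mature sequences and positions came from RefSeq tables of GRCm38.p6, and hairpins within 10000 bases on 1 strand were taken as a cluster, where an arm with no entry followed the other arm of its hairpin.

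The text names miRNAs of the paper with a spot detected on at least 1 array, the 15 highest and 15 lowest log2 ratios among those detected on both, the 5 largest and 5 smallest among those detected on 1 array, the 15 brightest of each array, up to 4 members per list or seed family, and every called miRNA, and some of these are given only in counts. Undetected markers, arm pairs and motif carriers outside that rule were picked after their values were seen. Members and lists were chosen with earlier results of these data known, so a list's count and median describe it and test nothing. Alternatives were other scalings, background steps, detection limits and size limits. Plain subtraction with median scaling was added after seeing the data.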

Additional observations from a re-analysis of the deposited data

Results flagged for a closer look

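Signal was found outside the miRNA spots. The arrays hold 22 spots named S-Probe1001 to S-Probe1022, whose identity is not given in the sources used here, and 8 of them lay more than 2 SD of the blank spots above background on both arrays. Of these 8, 7 were brighter on C2C12-DF. The median log2 ratio of the 8 on the spike scale was 0.43, against 0.18 for the 285 miRNAs detected on both arrays. The 6 whose log2 ratio exceeded 2 SD of the spike control ratios are as follows. S-Probe1018 gave 2144 units on C2C12-DF against 1582 on C2C12-PR. S-Probe1019 gave 186 units on C2C12-DF against 106 on C2C12-PR, and S-Probe1016 gave 185 units on C2C12-DF against 135 on C2C12-PR. S-Probe1002 gave 147 units on C2C12-DF against 96.0 on C2C12-PR, and S-Probe1007 gave 126 units on C2C12-DF against 80.5 on C2C12-PR. S-Probe1005, the dimmest, gave 25.8 units on C2C12-DF against 20.9 on C2C12-PR, a difference below 1 SD of the trimmed blank spots on either array (5.38 on C2C12-DF and 5.95 on C2C12-PR). No test of these differences was possible.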

How the results depend on the processing

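No paired analysis was possible because each condition has 1 array. Under the 9 other ways of obtaining the values, 15 of the 19 called miRNAs stayed past the 2-fold limit in every one. miR-3090-5p was lost with the quantile step over the 2 C2C12 arrays, miR-17-5p with median scaling, 75th percentile scaling and no between-array normalization, and miR-3072-3p with these and 3 more. miR-669e-5p has no ratio in the authors' processed values. No called ratio changed sign. The number of calls rested on the background step. With an offset of 10, 6 miRNAs were higher. With plain subtraction it was 28 higher and 36 lower after the quantile step, 31 and 33 on the spike scale, and 18 and 43 after median scaling. The authors' processed values gave 42 higher, with a median log2 ratio of 0.40 against 0.04 as reported. At a 1.5-fold limit there were 14 higher and 26 lower, and at a 4-fold limit 0 higher and 2 lower. The other scalings and detection limits kept both counts within 1.5 times. Of 449 further values of named miRNAs and list medians, 248 moved by less than 1 technical SD and 201 by more. The offset limits what dim spots can show, and equal values for equal ranks limit what the brightest can.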
